A study of Mus musculus with 21 samples.

Results

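Described here are 56 genes of hereditary hearing loss, out of 52550 genes in the count table. They were taken as listed by name, other known deafness genes being left out, and their measured levels were not part of the rule. Symbols were looked up from the Ensembl gene identifiers. All 56 were found, Lrtomt through its RefSeq synonym Lrrc51. Bulk RNA-Seq libraries of 7 groups were compared, with 3 libraries per group: spiral ganglion neurons (SGNs), which carry sound information from the cochlea to the brainstem, at embryonic day E15.5 and at postnatal days P1, P8, P14 and P30, HCs (hair cells, P12) and P8 glia. The study profiled HCs and glia to set SGNs apart from their neighbours, and the same libraries give the level of each deafness gene by cell type and SGN age.

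Hereditary deafness genes are best known from the sensory epithelium. Hair cells turn sound into an electrical signal through the stereocilia of the hair bundle, and release glutamate onto SGNs at ribbon synapses. Supporting cells around them secrete the tectorial membrane and recycle potassium through gap junctions, and the lateral wall keeps up the ionic composition of the endolymph. A smaller number of deafness genes act in general cell processes such as translation, nucleotide synthesis, vesicle traffic or the endoplasmic reticulum.

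All mice were of strain C57BL/6 and carried the Cre reporter Rosa26-CAG-loxp-stop-loxp-tdTomato/+ (Ai9), so that each cell type was collected by its tdTomato fluorescence. SGNs carried ShhCre/+, a constitutive Cre active from the embryo on, and were picked by hand, 69 to 195 cells per library. HCs carried Atoh1-CreER+ and received tamoxifen at P0 and P1. They were taken from cochlear and vestibular organs together, about 1200 cells per library, by fluorescence-activated sorting in the study's methods and by hand in the sample labels. Glial cells carried vGlut3-iCreER/+, which also marks inner hair cells. Tamoxifen was given at P2 and P3, only the tissue around the SGNs was dissected, and 86 to 125 cells were picked per library. The study kept only samples that passed a qPCR test of marker genes that included Sox10 and Myosin-VI, so the difference in Myo6 between groups is partly set by that selection and is given only as a description. Nothing in the labels says that replicates came from separate animals, and p-values then measure only the spread between these libraries.

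Total counts ranged from 10368240 to 37287489 per library (median 20384100), and 3 counts corresponded to 0.0805 to 0.289 CPM (counts scaled by the library total). The summed level of 8 neuronal markers was 1088 to 11060 TPM (TPM are counts per gene length scaled to the same sum in every library) in SGN libraries, 406 to 433 in HCs and 37.2 to 390.3 in glia. The sum of 10 hair cell markers was 4172 to 4976 TPM in HCs, 22.1 to 658 in SGNs and 56.2 to 346 in glia. The sum of 9 Schwann and satellite glial markers was 7673 to 10380 TPM in glia, 8.001 to 1514 in SGNs and 58.6 to 286 in HCs. Each group was thus highest for its own marker list, and no SGN library from P1 on had a hair cell marker at 0. Replicate 1 of the P14 SGNs had the highest hair cell marker sum of the SGN libraries, 658 TPM against 71.9 in the lowest library of that age. A single marker, Ocm, held 506 TPM of the 658, and 2179 to 2789 TPM of the sums in HCs. In bulk samples, fewer cells of a type and less RNA per cell cannot be told apart.

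RefSeq promoters (GRCm38.p6) were found for 45 of the 56 genes. The 250 bases upstream of each start were searched on both strands for CAGCTG and CAGATG, the letters of E-boxes read by basic helix-loop-helix factors such as Atoh1, for TAATTA, a homeodomain core, and for GGGGCGGGG, a GC box. CAGCTG and TAATTA read the same on both strands. Among 34 genes with a promoter and their highest mean TPM in HCs, 6 held CAGCTG (17.6%, against 13.0% of all 32851 promoters), 5 held CAGATG (14.7% against 14.4%), 3 held TAATTA (8.82% against 4.84%) and 7 held GGGGCGGGG (20.6% against 10.4%). These shares are per gene, and a gene can have several promoters, so they are a description only. Counted per promoter, the shares in the same genes were 14.6%, 12.5%, 6.25% and 14.6%. The windows below belong to the 3 genes with the highest mean TPM in HCs whose window held one of the first 3 motifs and no annotated exon. They are shown because all 3 genes were called lower in SGNs than in HCs, and capitals mark the motif. They lie on the plus strand at chr19:4082238-4082487 (Cabp2), chr11:60469089-60469338 (Myo15) and chr5:68031585-68031834 (Grxcr1). A match is a run of letters and not a measured binding site.
Cabp2: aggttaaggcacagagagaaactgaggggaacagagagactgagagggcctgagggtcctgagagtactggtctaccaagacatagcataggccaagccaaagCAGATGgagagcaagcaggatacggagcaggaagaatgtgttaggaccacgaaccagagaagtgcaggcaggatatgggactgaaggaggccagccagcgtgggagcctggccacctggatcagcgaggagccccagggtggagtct
Myo15: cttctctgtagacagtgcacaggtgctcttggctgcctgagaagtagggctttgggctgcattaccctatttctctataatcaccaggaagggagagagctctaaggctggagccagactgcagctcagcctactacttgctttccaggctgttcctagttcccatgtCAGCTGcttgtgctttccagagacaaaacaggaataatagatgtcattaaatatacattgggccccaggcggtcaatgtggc
Grxcr1: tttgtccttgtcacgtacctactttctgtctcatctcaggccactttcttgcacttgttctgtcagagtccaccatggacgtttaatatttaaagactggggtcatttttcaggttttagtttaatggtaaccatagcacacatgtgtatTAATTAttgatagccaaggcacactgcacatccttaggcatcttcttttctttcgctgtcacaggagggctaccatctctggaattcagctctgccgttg

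Of the 56 genes, 44 had their highest mean TPM in HCs. That was 78.6% of these genes, against 51.6% of the 25350 genes whose mean exceeded 1 TPM in some group. In 38 of the 44 the HC libraries did not overlap the libraries of the second highest group, and in 40 genes every HC library exceeded all 15 SGN libraries. The same counts were not made over all genes, so they only describe the listed genes. The 6 with overlap were Gjb2 and Elmod3 (second in glia), Ceacam16, Tprn and Grhl2 (second in P14 SGNs) and Kars (second in P1 SGNs). There were 5 genes, Actg1, Tbc1d24, Crym, Ccdc50 and Hgf, that were highest in P1 SGNs. Coch, Myh14, Prps1 and Osbpl2 were highest in P14 SGNs, Slc26a4 in P8 SGNs, and Myh9 and Pou3f4 in glia. Of these 12 only Crym and Myh9 had libraries apart from those of the next group. In 9 of the 12, and in Gjb2 and Tprn, leaving out 1 library changed the highest group: Coch moved to P1 without P14 replicate 1, Slc26a4 to HCs without P8 replicate 1 or HC replicate 3, Actg1 to HCs without P1 replicate 3, and Hgf to E15.5 without replicate 1 or 2 of that age. Ccdc50 moved to E15.5 without replicate 2 of that age, Pou3f4 to P1 without P1 replicate 2 or 3 or glial replicate 3, and Myh14 and Osbpl2 to HCs without P14 replicate 3. Prps1 moved to HCs without P14 replicate 1 or 3 or HC replicate 1 or 3, Tprn to P14 without P14 replicate 2 or 3 or HC replicate 3, and Gjb2 to glia without glial replicate 1. No gene was highest at E15.5 or P30. The 44 genes highest in HCs were Gjb2, Gjb6, Otoa, Otog, Otogl, Tecta, Strc, Ceacam16, Triobp, Espn, Myo15, Myo3a, Myo6, Whrn, Clrn1, Adgrv1, Grxcr1, Grxcr2, Ptprq, Rdx, Eps8, Diaph1, Tprn, Clic5, Elmod3, Ildr1, Marveld2, Cldn14, Otof, Slc26a5, Cabp2, Gipc3, Homer2, Eya1, Eya4, Grhl2, Pou4f3, Lrtomt, Msrb3, Kars, Wfs1, Serpinb6a, Smpx and Tmprss3.

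**Figure D1:**
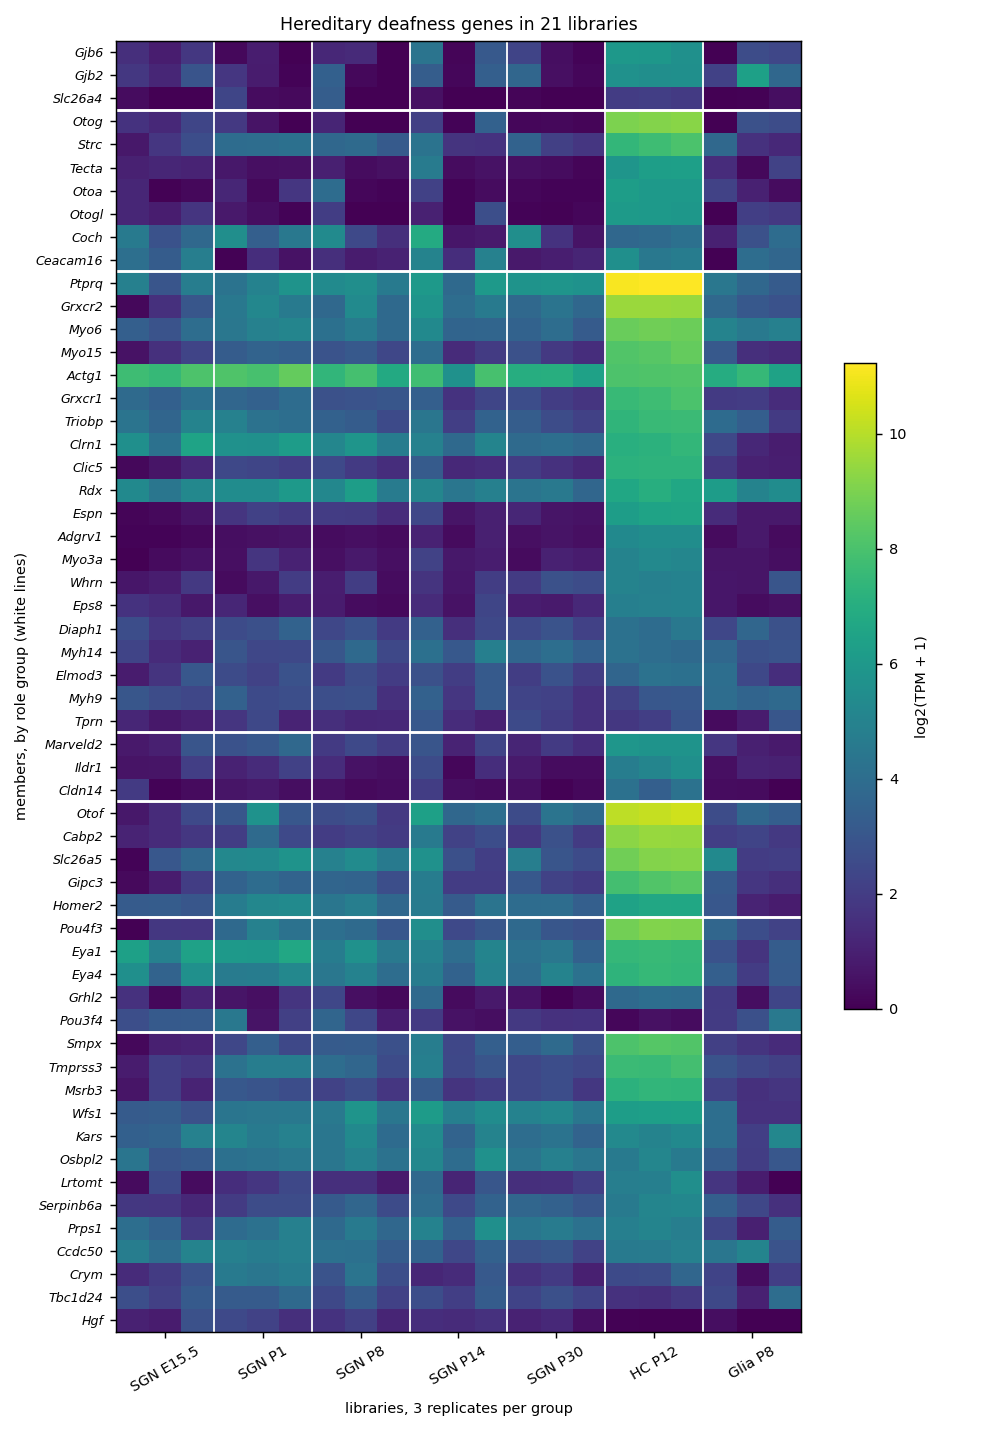
Expression of the 56 genes (rows, in 7 role groups divided by white lines) in 21 libraries (columns, 3 per group), as log2(TPM + 1). The 3 HC columns are brightest for most rows, led by Ptprq (2303 TPM on average), while Actg1 and Rdx are at 12.2 TPM or more in every library.

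The choice of scale bears on these rankings. With counts scaled by the trimmed mean of M-values (TMM) in place of TPM, 36 genes were highest in HCs and 9 in glia, and the highest group was the same on TPM means, TPM medians and TMM scaling in 40 genes. The median of all tested genes was shifted by -1.21 on the log2 TPM scale between SGNs and HCs, by -0.54 with library size scaling and by 0.02 with TMM. Gjb2, Rdx, Diaph1, Elmod3 and Kars moved to glia, Wfs1 to P14 SGNs, Tprn to P30 SGNs and Ceacam16 to E15.5 SGNs under TMM. Of the genes highest in SGNs, Tbc1d24 and Ccdc50 moved to glia, Actg1 to E15.5, and Myh14 and Prps1 to P30. TPM levels below are therefore given with the TMM-based fit (limma-voom) beside them.

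In SGNs, taken as the mean over ages, against HCs, 34 of the 56 genes passed the threshold of over 4-fold and adjusted p under 0.01, and 26.8% of all 17531 tested genes did. Of the 34, 32 were lower in SGNs and 2, Hgf and Tbc1d24, were higher, while 16.2% of all genes were called lower and 10.5% higher. The median log2 fold change was -3.40 over the 56 genes and 0.02 over all tested genes. With library size scaling 35 were lower and 2 higher, and over all genes the share of calls that were higher in SGNs went from 39.3% to 26.0%. HCs against glia gave 34 higher and 3 lower (Myh9, Pou3f4 and Tbc1d24) of 56, where 24.4% of all genes were called, 16.2% higher and 8.18% lower. The median was 3.76 against 0.14 over all genes, and library size scaling raised the share of higher calls over all genes from 66.4% to 77.8%. SGNs against glia gave 5 calls (8.93%), against 24.7% of all genes: Clrn1, Homer2, Eya1 and Hgf were higher and Gjb2 lower in SGNs. The count was 2 without glial replicate 2 and 9 without glial replicate 1. These 3 comparisons share libraries.

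**Figure D2:**
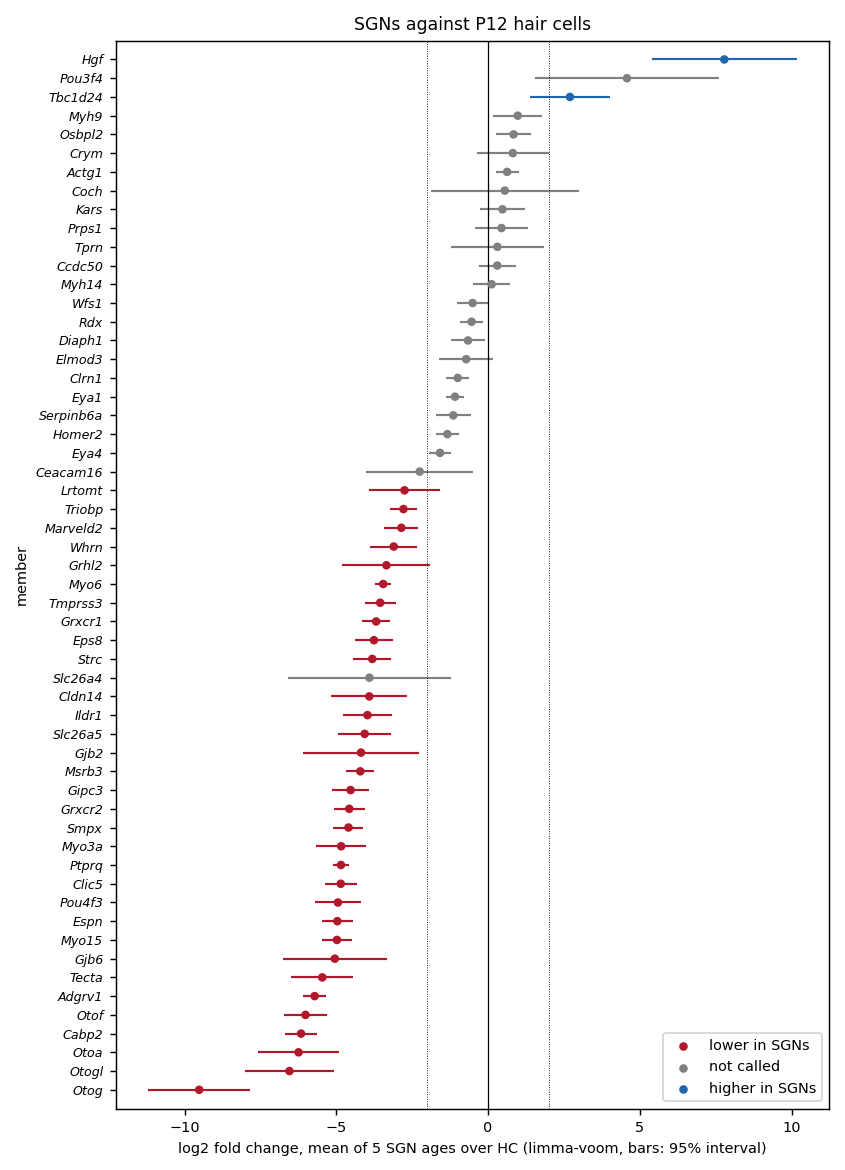
Fitted log2 fold change of the mean of 5 SGN ages over HCs for the 56 genes, with 95% intervals from limma-voom. Dotted lines mark 4-fold. The 32 genes called lower (red) lie left of the dotted line at -2, down to -9.52 ± 0.81 (SE) for Otog, and Hgf and Tbc1d24 (blue) lie right of the dotted line at 2.

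The 5 genes of the hair cell motor, the ribbon synapse and its calcium handling were all highest in HCs, and 4 of them were called lower in SGNs. The shares over all genes were 51.6% and 16.2%. Otof (chr5:30367062-30461932), the otoferlin gene that drives vesicle fusion at the ribbon synapse, had 1099.7, 1215 and 1369 TPM in HCs, 5.09, 12.4 and 9.22 in glia and 0.628 to 82.995 (median 6.99) over the 15 SGN libraries. The HC libraries lay far above all others, and the fit gave log2 fold change -6.02, 95% interval -6.71 to -5.32, adjusted p = 3.65e-12 for SGNs over HCs. Its 2 highest SGN libraries, P14 replicate 1 (82.99) and P1 replicate 2 (51.6), were also the 2 highest for the inner hair cell marker Slc17a8 (35.9 and 23.8 TPM).

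Cabp2, a calcium-binding modulator of synaptic calcium channels, reached 626, 715 and 697 TPM in HCs against 3.198, 3.895 and 2.59 in glia and 1.15 to 23.4 (median 3.14) in SGNs (log2 fold change -6.16, 95% interval -6.69 to -5.64, adjusted p = 3.69e-14). Slc26a5 encodes prestin, the outer hair cell motor. It had 449, 566 and 581 TPM in HCs and 0.0673 to 52.7 (median 22.8) in SGNs, without overlap (log2 fold change -4.07, 95% interval -4.93 to -3.20, adjusted p = 4.69e-08). In glia it was 38.7, 2.98 and 3.21, with replicate 1 far above the other libraries of the group, and the outer hair cell marker Ocm was 275, 23.2 and 19.4 TPM in the same 3 libraries. In SGNs of P14 Slc26a5 was 50.3, 5.68 and 3.28 and Ocm 506, 39.3 and 29.3. Both genes were high in the same replicate, and the part of hair cell material in these values was not tested.

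Gipc3, a PDZ-domain protein needed for hair cell function, had 233, 285 and 327 TPM in HCs, 7.97, 2.38 and 1.87 in glia and 0.235 to 25.6 (median 5.54) in SGNs (log2 fold change -4.53, 95% interval -5.14 to -3.92, adjusted p = 4.18e-11). Homer2, a scaffold that links receptors to calcium stores, stood apart from the other 4. It had 88.8, 105 and 102 TPM in HCs, 7.27, 1.196 and 0.824 in glia and 7.06 to 39.9 (median 15.2) in SGNs. HCs were above every SGN library, but the fitted difference stayed under 4-fold (log2 fold change -1.34, 95% interval -1.73 to -0.96, adjusted p = 3.32e-06). Against glia Homer2 was higher in SGNs (log2 fold change 2.38, 95% interval 1.37 to 3.40, adjusted p = 0.000391), although glial replicate 1 overlapped the lowest SGN libraries and 3 of 27 alternative settings lost the call.

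The 20 genes of the hair bundle, actin and unconventional myosins were highest in HCs in 17 cases, and 12 were called lower in SGNs and none higher. Over all genes 51.6% were highest in HCs, 16.2% were called lower and 10.5% higher. Ptprq, a phosphatase of the shaft connectors between stereocilia, was the most abundant of all 56 in HCs with 2188, 2392 and 2327 TPM. It had 6.705 to 66.7 (median 40.9) TPM in SGNs and 21.1, 12.4 and 8.39 in glia. The SGN value was no higher than 2.90% of the HC mean in any library (log2 fold change -4.85, 95% interval -5.11 to -4.59, adjusted p = 6.82e-17). Grxcr2, a glutaredoxin-like bundle protein, had 738, 752 and 719 TPM in HCs, 12.9, 7.48 and 6.16 in glia and 0.185 to 54.4 (median 15.1) in SGNs (log2 fold change -4.58, 95% interval -5.09 to -4.06, adjusted p = 2.39e-12). Its relative Grxcr1 had 189.9, 209.7 and 259.6 in HCs, 2.71, 3.0004 and 1.68 in glia and 2.08 to 16.6 (median 6.94) in SGNs (log2 fold change -3.69, 95% interval -4.15 to -3.22, adjusted p = 1.35e-11). For both, all HC libraries were above all others.

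Myo15, the motor that carries whirlin to stereocilia tips, had 293, 317 and 375 TPM in HCs, 7.71, 1.82 and 1.56 in glia and 0.454 to 14.6 (median 4.197) in SGNs (log2 fold change -4.98, 95% interval -5.47 to -4.49, adjusted p = 3.47e-13). Its cargo Whrn had 31.2, 28.998 and 30.1 in HCs and 0.248 to 5.79 (median 2.26) in SGNs, with 0.597, 0.557 and 6.898 in glia, where replicate 3 was above every SGN library (log2 fold change -3.11, 95% interval -3.89 to -2.33, adjusted p = 5.35e-07). Myo6, the minus-end motor that was one of the study's sample selection genes, had 405, 439.6 and 417 TPM in HCs, 31.1, 22.3 and 28.5 in glia and 6.34 to 38.9 (median 15.1) in SGNs, and is 1 of the 32 genes counted as lower. Espn, an actin bundler of stereocilia, had 75.3, 89.5 and 91.9 in HCs, 1.603, 0.706 and 0.706 in glia and 0.113 to 4.29 (median 1.298) in SGNs (log2 fold change -4.97, 95% interval -5.48 to -4.46, adjusted p = 6.4e-13). Triobp, which bundles the actin of the stereocilia rootlet, had 159, 195 and 203 in HCs, 14.1, 9.299 and 2.78 in glia and 3.19 to 31.1 (median 10.6) in SGNs (log2 fold change -2.79, 95% interval -3.24 to -2.33, adjusted p = 8.49e-10). Adgrv1, the receptor of the ankle links, was near or under 1 TPM in all SGN libraries, from 0.0832 to 1.14 (median 0.363), with 39.4, 43.7 and 44.7 in HCs and 0.2504, 0.716 and 0.243 in glia (log2 fold change -5.72, 95% interval -6.10 to -5.33, adjusted p = 7.11e-16).

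Clrn1 (chr3:58844028-58885340), the Usher syndrome gene clarin, was different. It had 134, 148 and 172 TPM in HCs, 4.43, 1.41 and 0.8803 in glia and 12.9 to 88.9 (median 32.8) in SGNs. All SGN libraries were above all glial libraries (log2 fold change 3.59, 95% interval 2.39 to 4.80, adjusted p = 3.19e-05), and the call was made in all 27 alternative settings. Against HCs the fit gave log2 fold change -1.0, 95% interval -1.38 to -0.62, adjusted p = 0.000106, under 4-fold. In SGNs Clrn1 was a median of 21.7% of its HC mean, and in 13 of 15 SGN libraries its share of the HC level exceeded that of all 10 hair cell markers.

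Actin and the nonmuscle myosins were found in all groups. Actg1, gamma actin, was highest in P1 SGNs with 276, 251 and 384 TPM, against 271, 279 and 289 in HCs, 122, 180.0 and 87.8 in glia and 212, 185 and 269 at E15.5, with overlap. Over all SGN libraries it was 49.5 to 384 (median 212) TPM. Its TPM ranking depends on scale, and TMM put E15.5 SGNs highest. Reads of actin genes can also come from near-identical copies. Myh9, a nonmuscle myosin heavy chain, was highest in glia with 15.2, 11.2 and 13.1 TPM, against 3.67, 7.16 and 7.43 in HCs and 1.91 to 10.3 (median 5.05) in SGNs. The glial libraries were above the HCs, and the fit gave log2 fold change -2.80, 95% interval -3.69 to -1.92, adjusted p = 2.37e-05 for HCs over glia. Myh14, another nonmuscle heavy chain, was 16.9, 7.48 and 27.7 TPM in P14 SGNs, 1.13 to 27.7 (median 7.07) over all SGN libraries, 18.01, 15.1 and 13.2 in HCs and 12.4, 5.73 and 6.27 in glia, and the groups overlapped.

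Of the other bundle genes, Clic5, Eps8 and Myo3a were called lower in SGNs, with HC means of 149, 29.3 and 34.97 TPM and no SGN library above 8.34 TPM. Rdx, a linker of membrane and actin, had 102, 129 and 104 TPM in HCs and 12.2 to 74.3 (median 34.1) in SGNs, and its fitted difference of -0.54 ± 0.18 (log2 ± SE) was not called. Diaph1, Elmod3 and Tprn were not called against HCs either, with log2 differences of -0.66 ± 0.28, -0.72 ± 0.42 and 0.31 ± 0.73.

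The 3 tight junction genes were all called lower in SGNs than in HCs, where 16.2% of all genes were. Marveld2 (tricellulin), of the corners where 3 cells meet, had 58.5, 53.5 and 53.5 TPM in HCs, 2.44, 0.979 and 0.753 in glia and 0.704 to 12.8 (median 2.93) in SGNs (log2 fold change -2.86, 95% interval -3.42 to -2.30, adjusted p = 1.27e-08). Ildr1, a tricellular junction receptor, had 26.2, 33.5 and 47.1, 0.388, 1.16 and 1.01 and 0.1496 to 4.901 (median 0.775) in the same order (log2 fold change -3.98, 95% interval -4.78 to -3.17, adjusted p = 2.57e-08). Cldn14, a claudin, had 17.4, 9.54 and 18.02 TPM in HCs, 0.314, 0.248 and 0 in glia and 0.0457 to 3.07 (median 0.325) in SGNs (log2 fold change -3.92, 95% interval -5.16 to -2.67, adjusted p = 1.21e-05). No HC library of these genes was reached by any SGN library.

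The 7 genes of the tectorial, otolithic and extracellular matrices include several known mainly from supporting and other non-sensory cells, while Strc is a protein of the hair bundle. Of these, 5 (Otoa, Otog, Otogl, Tecta and Strc) were called lower in SGNs than in HCs, where 16.2% of all genes were. The HC libraries, which include vestibular organs, held 514, 561 and 598 TPM of Otog, a glycoprotein of acellular membranes, with 0.0119, 5.97 and 5.07 in glia and 0 to 10.1 (median 0.5004) in SGNs (log2 fold change -9.52, 95% interval -11.20 to -7.84, adjusted p = 2.7e-09). Otoa, which anchors gels to non-sensory cells, had 73.96, 63.5 and 66.5 TPM in HCs, 3.58, 1.07 and 0.314 in glia and 0.0574 to 14.9 (median 0.187) in SGNs (log2 fold change -6.25, 95% interval -7.57 to -4.92, adjusted p = 4.52e-08). Its SGN values were 14.9 TPM in P8 replicate 1 and under 4 TPM in the others. Tecta, alpha-tectorin, had 57.3, 77.5 and 79.4 in HCs, 1.72, 0.171 and 3.64 in glia and 0.128 to 24.6 (median 0.431) in SGNs, where P14 replicate 1 (24.6) was far above the rest (log2 fold change -5.46, 95% interval -6.48 to -4.45, adjusted p = 6.4e-09). The sum of 6 supporting cell markers was 215.9 to 233.9 TPM in HCs, above the highest SGN library (145.9) and glial library (107.6), and its part in these values was not tested. In HCs that sum was mostly Prox1 (103.6, 99.46 and 100.3 TPM) and Sox2 (105.9, 89.8 and 88.7), with Hes5 at 0. Prox1 was 5.22 to 128.4 TPM in SGNs, and Sox2 is also known from some vestibular hair cells, so the sum is not particular to supporting cells.

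Strc, stereocilin of the horizontal top connectors and of the tectorial attachment, had 173, 212 and 259 TPM in HCs, 12.7, 2.03 and 1.46 in glia and 0.664 to 18.3 (median 8.14) in SGNs (log2 fold change -3.82, 95% interval -4.44 to -3.19, adjusted p = 8.68e-10). Its exons overlap Ckmt1 on the other strand. Ceacam16, a tectorial membrane adhesion protein, was 47.6, 21.5 and 25.003 TPM in HCs, 0, 15.2 and 11.9 in glia, 16.01, 8.72 and 26.8 at E15.5 and 31.03, 1.81 and 29.2 at P14. These groups overlapped, and the difference between SGNs and HCs was not called (adjusted p = 0.0302). Ceacam16 exons overlap Gm19345 on the other strand. Coch (chr12:51593341-51605771), cochlin of the spiral limbus and ligament, was highest in P14 SGNs on the mean, at 38.98 ± 66.3 TPM (SD, n = 3). Its libraries were 22.7, 6.04 and 12.8 at E15.5, 45.3, 9.53 and 21.3 at P1, 40.9, 4.62 and 1.86 at P8, 116, 0.615 and 0.777 at P14 and 45.95, 2.101 and 0.491 at P30, against 12.3, 13.9 and 16.8 in HCs and 1.03, 5.81 and 14.9 in glia. At all 5 ages replicate 1 was the highest, and without the P14 library P1 SGNs had the highest mean. The P14 mean rests on that library. The sum of 6 fibroblast markers was also highest in replicate 1 at all 5 ages. It was 151.4, 7.34 and 10.2 TPM at P1, 70.8, 2.95 and 9.27 at P14 and 22.2, 0.761 and 0.153 at P30. In the 3 glial libraries, where Coch was 1.03, 5.81 and 14.9 TPM, the sum was higher, at 266.2, 413.9 and 309.6 TPM. The part of fibroblast material in Coch was not tested. The fitted difference from HCs was 0.55 ± 1.17 (log2 ± SE) and was not called.

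The gap junction genes Gjb2 and Gjb6 link cochlear supporting cells. Gjb2 (chr14:57098600-57104702) had 50.1, 45.6 and 47.1 TPM in HCs, 3.44, 83.4 and 12.3 in glia and 0 to 12.1 (median 1.32) in SGNs. It was lower in SGNs than in HCs (log2 fold change -4.19, 95% interval -6.11 to -2.26, adjusted p = 0.000677) and than in glia (log2 fold change -3.92, 95% interval -6.0 to -1.83, adjusted p = 0.00281), although glial replicate 1 lay within the SGN range and replicate 2 was the highest of all. The call against glia was lost in 2 of 27 alternative settings. Without glial replicate 1, glia had the higher mean. Gjb6 had 61.7, 60.98 and 49.2 in HCs, 0, 5.17 and 4.29 in glia and 0 to 19.2 (median 0.861) in SGNs, with the SGN maximum in P14 replicate 1 (log2 fold change -5.05, 95% interval -6.75 to -3.35, adjusted p = 2.42e-05). Slc26a4 (pendrin), the anion exchanger of endolymph-facing cells, was highest in P8 SGNs only through replicate 1. Its libraries were 9.02, 0 and 0 TPM at P8 and 2.99, 3.22 and 2.72 in HCs, with 0, 0.0626 and 0.341 in glia and 0 to 9.02 (median 0.0305) over all SGN libraries, and without that replicate HCs were highest. Slc26a4 was left out of the test between ages because no age had every library over 1 CPM. The fibroblast marker sum at P8 was 152.6, 32.8 and 10.1 TPM, and its part in Slc26a4 was not tested.

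**Figure D3:**
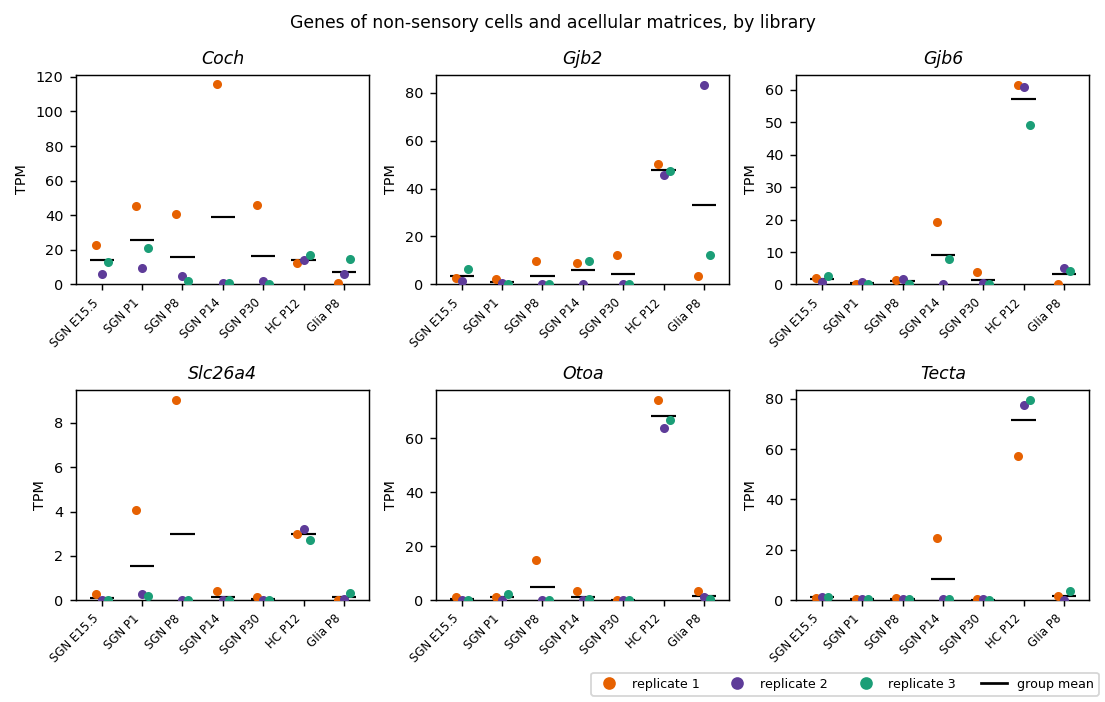
TPM of 6 genes of non-sensory cells and matrices in each of 21 libraries (points, coloured by replicate number) with group means (black lines). Replicate 1 of P14 SGNs reaches 116 TPM of Coch and replicate 1 of P8 SGNs 9.02 TPM of Slc26a4, each above the other libraries of its age.

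The 5 transcriptional regulators split. Pou4f3, a POU factor of hair cells, had 450.4, 544 and 524 TPM in HCs, 12.2, 5.199 and 3.69 in glia and 0 to 46.3 (median 7.303) in SGNs (log2 fold change -4.95, 95% interval -5.70 to -4.20, adjusted p = 2.62e-10). Grhl2, an epithelial factor, had 13.2, 15.7 and 14.7 in HCs, 2.79, 0.354 and 4.14 in glia and 0 to 13.3 (median 0.463) in SGNs, and P14 replicate 1 (13.3) reached the HC range (log2 fold change -3.35, 95% interval -4.80 to -1.90, adjusted p = 0.000379). Eya1 (chr1:14168954-14310235), a transcriptional coactivator of otic development, had 177, 189.6 and 178 TPM in HCs, 6.04, 2.21 and 8.74 in glia and 9.88 to 104 (median 30.04) in SGNs. All SGN libraries were above all glial ones (log2 fold change 2.44, 95% interval 1.76 to 3.11, adjusted p = 3.32e-06), although without glial replicate 2 the log2 fold change was 1.96, under 4-fold. The difference from HCs was under 4-fold (log2 fold change -1.09, 95% interval -1.38 to -0.80, adjusted p = 1.01e-06). Its paralog Eya4 had 155, 182 and 172 in HCs, 9.42, 3.02 and 8.31 in glia and 10.4 to 48.6 (median 25.01) in SGNs, without overlap between SGNs and glia. The fit gave 1.46 ± 0.35 (log2 ± SE) over glia and -1.59 ± 0.17 over HCs, neither beyond 4-fold. Pou3f4, known from otic mesenchyme, was 0.138, 0.427 and 0.309 TPM in HCs and 2.82, 5.72 and 22.3 in glia (log2 fold change -6.01, 95% interval -9.24 to -2.78, adjusted p = 0.00355 for HCs over glia). In SGNs it was 0.353 to 21.7 (median 2.82) TPM, with 21.7 in P1 replicate 1. The sum of 6 fibroblast markers was 7.34 to 151.4 TPM at P1 and 266.2 to 413.9 in glia, and its part was not tested.

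Of the 13 enzymes, trafficking proteins and others, 7 were highest in HCs, 4 in P1 SGNs and 2 in P14 SGNs. Of all genes with a mean over 1 TPM in some group, 51.6% were highest in HCs. In this role group 4 were called lower and 2 higher in SGNs than in HCs, where 16.2% and 10.5% of all genes were. Smpx, a small muscle-type protein, had 268, 306 and 292 TPM in HCs, 3.33, 2.23 and 1.59 in glia and 0.182 to 26.1 (median 5.93) in SGNs (log2 fold change -4.60, 95% interval -5.10 to -4.11, adjusted p = 1.19e-12). Tmprss3, a transmembrane serine protease, had 199, 193 and 234 in HCs, 6.41, 4.26 and 3.43 in glia and 0.7905 to 27.998 (median 5.22) in SGNs (log2 fold change -3.56, 95% interval -4.06 to -3.05, adjusted p = 9.96e-11). Msrb3, a methionine sulfoxide reductase, had 149, 166 and 159, 3.57, 1.9004 and 2.36 and 0.537 to 8.43 (median 3.68) in the same order (log2 fold change -4.21, 95% interval -4.67 to -3.75, adjusted p = 1.64e-12). For these 3 the HC libraries lay above all others. Lrtomt (mouse Lrrc51) was 27.1, 27.6 and 46.002 TPM in HCs and 0.256 to 12.8 (median 1.88) in SGNs. Its exons overlap Lamtor1 on the other strand. The separate mouse gene Tomt, a catechol methyltransferase of hair cells, had a mean of 38.1 TPM in HCs and a mean of at most 2.16 TPM at any SGN age.

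Wfs1, the endoplasmic reticulum protein of Wolfram syndrome, had 74.1, 78.6 and 82.9 TPM in HCs, 15.505, 2.06 and 2.05 in glia and 5.82 to 69.8 (median 21.5) in SGNs. The fitted difference between SGNs and HCs was -0.51 ± 0.25 (log2 ± SE) with an adjusted p of 0.0966. Serpinb6a, a protease inhibitor, had 23.1, 33.6 and 35.8 in HCs, 9.51, 4.27 and 1.903 in glia and 1.38 to 15.1 (median 5.15) in SGNs (log2 fold change -1.15, 95% interval -1.72 to -0.58, adjusted p = 0.00137), and its exons overlap those of other genes on the opposite strand. Prps1, a nucleotide synthesis enzyme, and Osbpl2, a lipid transfer protein, were highest in P14 SGNs by mean, but their libraries (30.8, 9.74 and 46.5 and 36.2, 14.6 and 50.3 TPM) overlapped HCs (27.6, 32.3 and 26.6 and 23.3, 34.1 and 23.1). In glia they were 4.02, 0.977 and 8.68 and 8.68, 3.09 and 7.37, and over all SGN libraries 2.63 to 46.5 (median 17.3) and 6.74 to 50.3 (median 19.8). Kars, a transfer RNA synthetase, had a mean of 36.5 TPM in HCs and a range of 9.71 to 41.5 (median 20.1) in SGNs, and did not pass the test (adjusted p = 0.272).

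Tbc1d24, a vesicle trafficking protein, was higher in SGNs than in HCs. It had 2.01, 1.83 and 2.61 TPM in HCs, 4.42, 1.03 and 15.3 in glia and 3.23 to 13.1 (median 5.57) in SGNs, and every SGN library was above every HC library (log2 fold change 2.70, 95% interval 1.38 to 4.01, adjusted p = 0.00116). Glial replicate 3 was the highest of all, and the difference between HCs and glia was lost in 8 of 27 settings. Hgf (chr5:16553495-16620152), the ligand of the Met receptor, was the other such gene. It had 0.0563, 0 and 0 TPM in HCs (2 counts in 3 libraries), 0.318, 0 and 0 in glia (37 counts, all in replicate 1) and 0.357 to 5.89 (median 1.74) in SGNs. Per total counts SGNs exceeded HCs 230-fold, with a 95% interval of 63.5 to 1897 for counting error only. Both HC counts lay in replicate 1 and may not be separate fragments, in which case the interval is too narrow. The fitted value against glia was 5.70 ± 1.11 (log2 ± SE, adjusted p = 0.000244) and depends on the prior count, as glial counts were 0 in 2 of 3 libraries. With sample quality weights its adjusted p was 0.0454 and the call was lost. Hgf exons overlap Gm43489 on the same strand.

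Crym, a thyroid hormone binding protein, was highest in P1 SGNs with 23.4, 19.99 and 25.4 TPM, above 6.29, 18.9 and 5.42 at P8, 4.71, 5.02 and 11.9 in HCs and 3.75, 0.287 and 3.25 in glia, and was 0.952 to 25.4 (median 5.42) over all SGN libraries. Ccdc50, an endosomal coiled-coil protein, had 28.5, 24.9 and 28.4 at P1, 23.05, 24.6 and 29.5 in HCs and 19.97, 32.6 and 6.41 in glia, which overlapped, and 3.68 to 31.5 (median 15.4) over all SGN libraries.

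Across SGN ages, genes passed at over 2-fold and adjusted p under 0.05, and the share of all tested genes is given beside each count. From E15.5 to P1 6 of 54 passed (11.1%), and 8.26% of all genes did. Of the 6, 5 rose and 1 fell, where 5.08% and 3.18% of all genes did. From P1 to P8 1 of 54 rose and none fell (7.44% of all genes passed, 4.29% rising and 3.15% falling), from P8 to P14 none (0.536%, 0.251% rising and 0.285% falling) and from P14 to P30 none (0.0596%, of which 0.0331% rising and 0.0265% falling). For P8 to P14 limma-voom gave 10 genes and for P14 to P30 3 genes with an unadjusted p under 0.05, edgeR called none in either step and DESeq2 called 2 in each. From E15.5 to P30 17 of 54 passed (31.5%), against 34.6% of all genes, and 11 rose and 6 fell, where 18.4% and 16.2% of all genes did. With library size scaling 7 rose and 10 fell in that comparison. The share of calls over all genes that rose moved from 53.2% to 29.9% with that scaling, from 61.5% to 46.7% for E15.5 to P1, from 57.7% to 35.6% for P1 to P8 and from 46.9% to 26.0% for P8 to P14. Without P14 replicate 1, 10 genes passed from E15.5 to P1. From P1 to P8 none passed without P1 replicate 1 and 2 without P8 replicate 1, and from P8 to P14 1 passed without P14 replicate 2. Shared age groups mean that these steps are not independent.

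Between E15.5 and P1, Homer2 rose from 8.43, 8.72 and 7.06 TPM to 25.2, 35.8 and 39.9 (log2 fold change 1.52, 95% interval 0.96 to 2.08, adjusted p = 0.0021), and Crym from 1.59, 2.86 and 6.19 to 23.4, 19.99 and 25.4 (log2 fold change 2.33, 95% interval 1.31 to 3.35, adjusted p = 0.00672). The ages did not overlap, and both calls were made in all 22 alternative settings. Ceacam16 fell from 16.01, 8.72 and 26.8 TPM to 0.0618, 1.799 and 0.456 (log2 fold change -5.88, 95% interval -8.58 to -3.18, adjusted p = 0.0085), also in all 22 settings, but was 31.03, 1.81 and 29.2 at P14. Espn (0.113, 0.208 and 0.518 to 2.301, 3.52 and 2.78 TPM, log2 3.01 ± 0.82), Grxcr2 (0.185, 1.97 and 6.95 to 21.8, 35.6 and 23.1, log2 3.49 ± 0.93) and Tmprss3 (0.7905, 3.24 and 2.43 to 17.5, 25.7 and 25.7, log2 2.99 ± 0.73) rose as well (log2 ± SE). They did not pass in 5, 3 and 2 of 22 settings. The hair cell marker sum rose over the same step, from 22.1 to 167.1 TPM at E15.5 to 427 to 468 at P1. Most of the P1 sum was Ocm (378, 355 and 398 TPM). The median of the 10 markers was 0.0982 to 2.48 TPM at E15.5 and 4.55 to 10.7 at P1. The part of hair cell material in the rise of Espn, Grxcr2 and Tmprss3 was not tested. From P1 to P8 Serpinb6a rose from 2.88, 5.15 and 5.04 to 7.93, 12.1 and 4.99 TPM. The fit gave log2 fold change 1.37, 95% interval 0.64 to 2.11, adjusted p = 0.017, but in TPM the third P8 library lay within the P1 range, and 4 of 22 settings lost the call.

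From E15.5 to P30 the fall of Eya1, from 81.7, 29.6 and 83.8 to 17.1, 21.1 and 9.88 TPM (log2 fold change -1.76, 95% interval -2.17 to -1.35, adjusted p = 3.17e-06), and of Ccdc50, from 26.3, 15.4 and 31.5 to 5.83, 7.13 and 3.68 (log2 fold change -1.95, 95% interval -2.45 to -1.46, adjusted p = 7.52e-06), had the smallest adjusted p-values of the falling genes. Clrn1 fell from 47.3, 17.3 and 88.9 to 13.7, 15.51 and 12.9 (log2 fold change -1.42, 95% interval -2.02 to -0.81, adjusted p = 0.000994). Triobp (19.2, 11.8 and 31.1 to 8.92, 5.17 and 3.51 TPM), Grxcr1 (13.7, 9.99 and 16.6 to 5.38, 3.11 and 2.35) and Ceacam16 (16.01, 8.72 and 26.8 to 0.695, 0.935 and 1.22) fell by log2 values of -1.59 ± 0.41, -1.72 ± 0.51 and -3.93 ± 1.0 (± SE), and 2 settings lost Grxcr1. Among rising genes, Wfs1 rose from 8.39, 9.02 and 5.82 to 30.8, 35.9 and 20.4 TPM (log2 fold change 2.06, 95% interval 1.30 to 2.81, adjusted p = 0.000283), Myh14 from 3.91, 1.57 and 1.13 to 11.5, 15.6 and 9.897 (log2 fold change 2.89, 95% interval 1.96 to 3.81, adjusted p = 7.9e-05), Ptprq from 28.2, 6.705 and 25.9 to 53.1, 56.5 and 51.6 (log2 fold change 1.85, 95% interval 1.12 to 2.58, adjusted p = 0.000527) and Serpinb6a from 2.51, 2.43 and 1.38 to 12.1, 10.05 and 7.05 (log2 fold change 2.43, 95% interval 1.5 to 3.36, adjusted p = 0.000379). The ages did not overlap for these 4.

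Smpx (0.182, 1.01 and 1.19 to 9.18, 13.9 and 5.93 TPM, log2 3.91 ± 0.89) and Grxcr2 (12.8, 18.96 and 12.4 TPM at P30, log2 3.27 ± 0.94) rose, and so did Adgrv1 (0.0915, 0.0832 and 0.193 to 0.3797, 0.495 and 0.3798, log2 1.96 ± 0.54), all under or near 20 TPM. Whrn (0.592, 0.8701 and 2.65 to 2.89, 5.79 and 5.18), Prps1 (15.6, 10.6 and 2.63 to 19.6, 24.7 and 17.3), Osbpl2 (19.8, 6.74 and 8.13 to 19.2, 28.4 and 20.2) and Pou4f3 (0, 2.52 and 2.37 to 13.1, 6.9001 and 5.79) rose with adjusted p of 0.0198, 0.0182, 0.00233 and 0.0487. The call was lost in 5, 4, 2 and 16 of 22 settings. The hair cell marker sum was 22.1 to 167.1 TPM at E15.5 and 78.1 to 339.9 at P30. Ocm alone was 0 to 137 and 38.3 to 297 TPM of it. The median of the 10 markers was 0.0982 to 2.48 TPM at E15.5 and 3.095 to 4.39 at P30. The part of hair cell material in the rise of Ptprq, Smpx, Grxcr2, Adgrv1, Whrn and Pou4f3 was not tested.

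**Figure D4:**
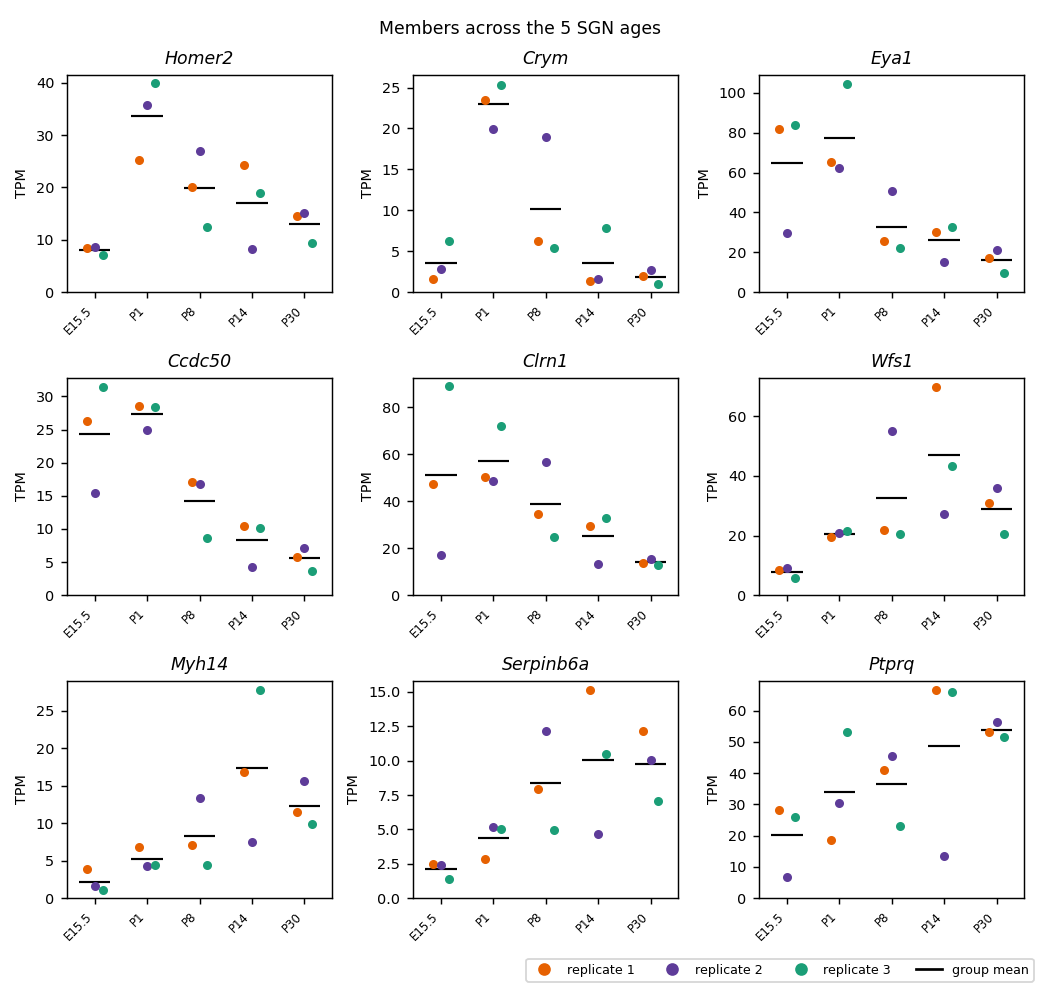
TPM of 9 genes in the 15 SGN libraries by age (points, coloured by replicate number) with means (black lines). Homer2 and Crym peak at P1, Eya1, Ccdc50 and Clrn1 end lower at P30 than at E15.5, and Wfs1, Myh14, Serpinb6a and Ptprq end higher.

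Most HC genes were also counted at low levels in SGNs. The median of the 44 genes highest in HCs was 1.55% to 10.6% of their HC mean over the 15 SGN libraries and 1.37% to 2.62% in the glial libraries, against 0.0431% to 8.10% and 0.830% to 3.00% for the median of 10 hair cell markers. Both medians were highest in P14 replicate 1 (10.6% and 8.10%), which was the highest SGN library for 28 of the 56 genes. How often it was the highest over all genes was not counted. From 7 to 14 of the 44 genes per SGN library had a larger share than every one of the 10 markers. Rdx, Diaph1 and Kars did so in all 15 libraries, Tprn and Elmod3 in 14, Clrn1, Homer2 and Wfs1 in 13, and Eya1 and Serpinb6a in 11. By contrast Otog, Espn, Myo15, Ptprq, Otof, Cabp2, Slc26a5, Gipc3, Pou4f3, Smpx and Tmprss3 did so in no library. Nor did Otogl, Strc, Myo3a, Myo6, Adgrv1, Grxcr1, Grxcr2, Eps8, Clic5, Ildr1 and Msrb3. In these genes the share of the HC level never exceeded that of the marker with the largest share in the same library. The part of hair cell material was not tested.

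**Figure D5:**
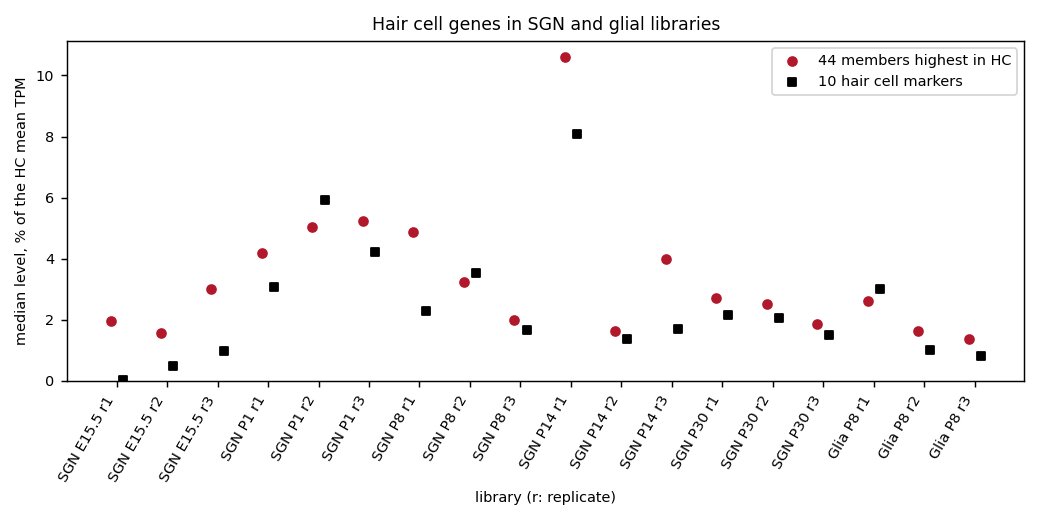
Median level in each SGN and glial library as a percentage of the HC mean TPM, for the 44 genes highest in HCs (red circles) and for 10 hair cell markers (black squares). P14 replicate 1 is highest for both, at 10.6% and 8.10%, and the 3 E15.5 libraries have the lowest marker shares of the SGN libraries, under 1%.

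Of 26 further deafness genes outside the list, 25 were tested, and 16 were called lower and 1 higher in SGNs than in HCs (16.2% and 10.5% of all genes). Myo7a, Lhfpl5, Tmc1, Cdh23, Loxhd1 and Slc17a8 are also among the 10 hair cell markers used above. All of them are among the 16 called lower, so this list is not independent of the markers. HCs against glia gave 18 higher and 2 lower (16.2% and 8.18% of all genes), and SGNs against glia 2 higher and 3 lower (14.3% and 10.4% of all genes). The highest mean was in HCs in 21 of 26 (51.6% of all genes with a mean over 1 TPM), led by Pjvk, Slc17a8 and Ush1c with 467, 378 and 358 TPM. The gene higher in SGNs than HCs was Esrrb (log2 6.86 ± 1.08). Across ages 4 rose from E15.5 to P1 (5.08% of all genes did; Cdh23, Pdzd7, Cib2 and Tnc, by log2 3.73, 1.64, 2.19 and 2.25), 1 rose and 2 fell from P1 to P8 (Mitf 1.89, Pdzd7 -1.89 and Tnc -2.48), and none changed from P8 to P14 or from P14 to P30. These lists were chosen with earlier results of these data known.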

How the data were processed

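The submitters' processing notes name CASAVA, STAR 2.4.0i, featureCounts and mm10, and the study's methods name GENCODE vM15. The authors deposited raw counts per gene with gene lengths. Strand use in counting is not given in the sources used here, so overlapping genes are uncertain (10 of 56, 8 of them on the opposite strand). The 8 are Tecta, Strc, Ceacam16, Myh14, Homer2, Grhl2, Lrtomt and Serpinb6a, and Actg1 and Hgf overlap on the same strand. A median of 67.9% of nonzero counts up to 20 were even per library, so single counts may not be single fragments. From the deposited counts TPM was computed with the file's gene lengths. Genes were kept for testing where at least 1 group had every library over 1 CPM. They were tested with limma-voom 3.58.1 on TMM-scaled counts (edgeR 4.0.16, R 4.3.3), with 1 mean per group, two-sided tests and Benjamini-Hochberg adjustment over all tested genes: all 21 libraries for cell types (over 4-fold, adjusted p under 0.01), and the 15 SGN libraries for ages (over 2-fold, adjusted p under 0.05). Alternatives were edgeR, DESeq2 1.42.0, library size scaling, quality weights, no filter, a replicate block, a 21-library fit for ages and leaving out each library. The fits were tested on simulated data with known changes. Intervals of log2 fold changes come from limma-voom and include the spread between libraries, while the interval of the Hgf count ratio and the floor (3 counts) cover counting error only.

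Genes given in most detail were the 4 highest of each role group, those highest outside HCs and those that passed between ages. HC and glial libraries are given singly, the 15 SGN libraries by their lowest, median and highest value, and single SGN libraries where an age is compared. The gene list, role groups and other lists were chosen with earlier results of these data known. Positions are from GENCODE M21 (GRCm38).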

Additional observations from a re-analysis of the deposited data

How the results depend on the processing

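The number of genes that passed was recounted under each alternative, and no call changed direction. For SGNs against HCs it was 33 to 36 when 1 library was left out, for HCs against glia 32 to 38, for E15.5 to P30 14 to 22, and the number highest in HCs 43 to 46. For SGNs against glia it was 2 to 9 (9 without glial replicate 1, 2 without glial replicate 2), 3 with quality weights and 10 without P14 replicate 1 and glial replicate 1, a setting chosen after seeing the data. For E15.5 to P1 it was 4 to 10 (10 without P14 replicate 1), 13 with DESeq2 and 3 with quality weights. For P1 to P8 it was 0 to 2 (0 without P1 replicate 1, 2 without P8 replicate 1), 0 with edgeR and with the 21-library fit, 3 with quality weights and 4 with library size scaling. For P8 to P14 it was 0 to 1 when 1 library was left out (1 without P14 replicate 2), 2 with DESeq2 and 1 with quality weights. For P14 to P30 it was 0 to 0, and 2 with DESeq2. The cause of these changes was not tested.

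With the replicate block 9 genes passed from E15.5 to P1, 3 from P1 to P8, 21 from E15.5 to P30 and 4 for SGNs against glia, where Gjb2 was lost. It left the other counts as they were. Deviations of same-numbered libraries correlated over 0.1 in all 3 pairs between P14 and P30 over the genes tested in SGNs (0.39, 0.24 and 0.10), but not over those tested in all 21 libraries (0.36, 0.241 and 0.086), where P8 and P30 did (0.395, 0.177 and 0.162). In the other comparisons not all 3 pairs did, although replicate 1 libraries correlated between postnatal ages. From P1 to P8 the values were 0.37, 0.07 and 0.16, and from P8 to P14 0.34, 0.14 and 0.03. Whether these libraries share an origin is not given in the labels. None of the 56 genes passed between P14 and P30 with or without the block. Calls made in every setting were 28 of 34 (SGNs against HCs), 24 of 37 (HCs against glia), 1 of 5 (SGNs against glia), 3 of 6 (E15.5 to P1), 12 of 17 (E15.5 to P30) and 0 of 1 (P1 to P8).

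Between SGNs and HCs the median gene differs by -1.21 on the log2 TPM scale, so TPM ratios of about that size are not differences in the fit. Counts under 3 per library are at the floor of detection, and with 3 libraries per group a single library can set a mean, as it changed the highest group of 9 genes outside HCs and 2 in HCs.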
